A study of Mus musculus with 12 samples.

Results

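Long noncoding RNAs are transcripts that lie outside protein coding genes or run beside and across them, and that carry no long open reading frame. The 171 described here are the genes annotated as lncRNA on the autosomes of the mouse whose mean level over all 12 libraries reached at least 5 CPM (counts per 1000000 counts of a library), with Meg3, Rian and Mirg left out. They were 171 of 8923 autosomal lncRNA genes in the count tables and of 55359 genes in all. Their mean level over all 12 libraries chose them, so that level is a description. Differences between the groups were not a criterion, but only 157 of the 171 had a mean of at least 5 CPM in each group. The rest, such as Gm47033, Gm16565, 2610316D01Rik and A330008L17Rik, passed only through the groups in which they were higher. Their differences are thus not independent of the choice. The members nearest to the minimum were Snhg12 at 5.03 CPM and Reno1 at 5.10 CPM, and the genes just below it were A230056P14Rik at 4.98 CPM and A730060N03Rik at 4.91 CPM.

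The libraries came from the ventroposterior medial nucleus of the thalamus, the relay for touch on the face, dissected from mouse pups at postnatal day 0. There were 4 libraries of the upper lip territory (ALBSF) of embWPC pups, 4 of the whisker pad territory (PMBSF) of control (Ctrl) pups and 4 of the upper lip territory (ALBSF) of Ctrl pups. The labels do not expand embWPC and give no strain or genotype, and a whisker pad territory of embWPC pups was not analysed here. Each library pooled 5 brains cut at 300 µm, so the spread between libraries is that between pools, and the labels do not say whether pools shared litters.

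Long noncoding RNAs act in several ways. Some are scaffolds in the nucleus, such as Malat1 in nuclear speckles, or bind proteins in the cytoplasm, as Norad binds Pumilio proteins. Others are mainly host transcripts, from whose exons or introns microRNAs (miRNAs) or small nucleolar RNAs (snoRNAs, guides for the modification of other RNAs) are cut. Another kind starts beside a coding gene and runs away from it on the other strand, often from a shared promoter. The brain expresses many of them, and neural miRNAs such as miR-9 and miR-124 come from long noncoding hosts.

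Library totals ran from 28457046 to 34512840 counts, and the smallest count of any member in any library was 83. All 171 members passed the filter on low counts that left 17501 genes for testing. RNA was selected by its poly-A tail, so transcripts without a tail are poorly measured. The strand setting of the counting is not given in the sources used here. Other genes covered at least 10% of the exon bases of 99 of the 171 members in the current gene models, and reads from such bases cannot be told apart without strand. Thalamic relay neuron markers, 11 genes that include Slc17a6 and Lef1, summed to 2508 to 3072 CPM in embWPC ALBSF, 2463 to 2776 CPM in Ctrl PMBSF and 2776 to 2971 CPM in Ctrl ALBSF.

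By annotation 15 members host miRNA genes, among them all 3 genes of miR-9 and all 3 of miR-124. The mature sequences below are shown because they are the products that tie these members to a known function, and because hosts on different chromosomes carry the same seed. Capitals mark the seed, bases 2 to 8 from the 5′ end, which pairs with target messenger RNAs. Gm3764 (Mir9-1), Mir9-2hg and Mir9-3hg each hold this pair.
miR-9-5p: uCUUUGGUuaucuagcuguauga
miR-9-3p: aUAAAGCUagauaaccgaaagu
Mir100hg holds miR-100 and Mir99ahg holds miR-99a, which share a seed, and both hosts hold a gene of miR-125b. Mir99ahg also holds let-7c.
miR-100-5p: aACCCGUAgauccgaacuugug
miR-99a-5p: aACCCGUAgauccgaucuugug
miR-125b-5p: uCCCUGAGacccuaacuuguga
let-7c-5p: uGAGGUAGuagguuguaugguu
Mir22hg holds miR-22, and 2610307P16Rik holds miR-6368.
miR-22-3p: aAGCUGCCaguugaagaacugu
miR-6368: cUGGGAAGcaguggaggggag
Sequences are from RefSeq on GRCm38.p6, whose table held 17 of the 24 miRNA genes inside members, and Mir124a-1, Mir124a-2 and Mir124a-3 are named only. Mature miRNAs were not measured, since the counts are of long transcripts.

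The other main class was set by position. On GRCm39 each member was put in 1 class, and 13 overlapped a coding gene on the same strand. Of the rest, 78 had a start site within 5 kb of that of the nearest coding gene, on the opposite strand. Some of these, such as A230077H06Rik and Vstm2b, overlap that gene as well. A further 21 overlapped a coding gene on the opposite strand without such a start, and 59 had none of these. RefSeq promoter windows, 250 bases before to 50 after a start on GRCm38.p6, were matched by symbol for 112 members. For 87 of these the nearest coding gene also had a window, and in 24 of the 87 the windows on opposite strands overlapped. The windows below are shown because each belongs to a member with the same sign of difference as a called gene next door. Capitals mark the 6 bases GGGCGG (a GC box) on either strand. The window of A330008L17Rik lay at chr8:99416424-99416723 on the plus strand and shared 298 of its 300 bases with that of Cdh8 on the minus strand.
A330008L17Rik: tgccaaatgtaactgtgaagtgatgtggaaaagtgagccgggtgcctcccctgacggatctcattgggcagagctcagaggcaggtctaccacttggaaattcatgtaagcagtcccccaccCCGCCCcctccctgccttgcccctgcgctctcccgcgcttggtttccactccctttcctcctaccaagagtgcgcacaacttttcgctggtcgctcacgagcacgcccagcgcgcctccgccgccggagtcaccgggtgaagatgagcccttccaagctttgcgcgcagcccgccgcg
That of 2610316D01Rik lay at chr3:45378211-45378510 on the minus strand and shared 237 bases with that of Pcdh10.
2610316D01Rik: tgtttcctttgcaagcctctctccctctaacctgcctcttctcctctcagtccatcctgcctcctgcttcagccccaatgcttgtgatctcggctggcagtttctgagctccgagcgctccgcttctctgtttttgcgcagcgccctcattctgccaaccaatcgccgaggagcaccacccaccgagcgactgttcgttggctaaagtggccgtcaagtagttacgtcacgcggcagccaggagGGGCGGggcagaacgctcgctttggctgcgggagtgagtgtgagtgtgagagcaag
That of A230077H06Rik lay at chr7:40898275-40898574 on the minus strand, and its neighbour Vstm2b had a window of its own at chr7:40899028-40899327 on the plus strand.
A230077H06Rik: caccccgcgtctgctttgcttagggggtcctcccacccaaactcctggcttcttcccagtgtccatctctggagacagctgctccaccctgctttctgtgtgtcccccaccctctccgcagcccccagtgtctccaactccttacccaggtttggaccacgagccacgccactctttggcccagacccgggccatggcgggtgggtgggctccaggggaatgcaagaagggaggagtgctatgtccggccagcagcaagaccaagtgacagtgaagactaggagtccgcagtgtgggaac
GGGCGG occurred in 63 of the 140 member windows (45.0%) and in 35.7% of the 32851 windows in the table. TATAAA, searched on both strands, occurred in 10.7% of member windows and 13.6% of all, and AGGTCA, likewise, in 14.3% and 16.3%. The median number of CG dinucleotides was 16 in member windows and 7 in all windows. The full set was not limited to genes expressed here, so these values do not set members beside other expressed genes. A330008L17Rik held 22 of them, 2610316D01Rik 19 and A230077H06Rik 9. These are letters in fixed windows and do not show binding.

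A few members held a large share of the signal. The 171 took 0.379 ± 0.034% of a library's counts in embWPC ALBSF, 0.372 ± 0.031% in Ctrl PMBSF and 0.357 ± 0.023% in Ctrl ALBSF (SD, n = 4 each), so the groups differed by less than the spread between libraries. The 5 members at 100 CPM or more held 40.1% of the summed level, and 94 members were under 10 CPM. Per kb of annotated exon, which is approximate because the gene models used for length are newer than those used for counting, Snhg11 led with 63.3 CPM per kb. Norad followed with 55.0 CPM per kb, Malat1 with 47.7, Peg13 with 26.9 and Gm10076 with 23.4. Below these came 2010320M18Rik with 17.3 CPM per kb, 1500035N22Rik with 13.9, Oip5os1 with 13.4, 2810013P06Rik with 11.7 and Gm7292 with 11.5. This order is a description, since the level chose the members.

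Snhg11, a snoRNA host abundant in neurons, had 450, 722, 514 and 668 CPM in embWPC ALBSF, 472, 492, 698 and 331 CPM in Ctrl PMBSF and 532, 680, 509 and 409 CPM in Ctrl ALBSF. Malat1 had 321, 451, 468 and 408 CPM in embWPC ALBSF, 337, 412, 379 and 265 CPM in Ctrl PMBSF and 308, 461, 412 and 293 CPM in Ctrl ALBSF. The groups of both overlapped, and the range within a group was wider than the distance between the group means. Norad, which binds Pumilio proteins, had 237, 309, 302 and 337 CPM in embWPC ALBSF, 224, 265, 265 and 276 CPM in Ctrl PMBSF and 272, 245, 270 and 297 CPM in Ctrl ALBSF. Oip5os1, known as Cyrano and as a trigger of miR-7 decay, averaged 168 ± 22.1 CPM in embWPC ALBSF, 169 ± 21.7 CPM in Ctrl PMBSF and 156 ± 11.0 CPM in Ctrl ALBSF. Peg13, a paternally expressed RNA inside the gene Trappc9, averaged 143 ± 21.5 CPM in embWPC ALBSF, 124 ± 28.2 CPM in Ctrl PMBSF and 114 ± 13.6 CPM in Ctrl ALBSF. None of these 5 passed the test in any of the 3 comparisons.

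Ctrl PMBSF was compared with Ctrl ALBSF to ask how the territory that takes whisker input differs at birth from the one that takes lip input. At an adjusted p under 0.05, 6 of the 171 members (3.51%) were called, 1 higher and 5 lower in Ctrl PMBSF, while 1.62% of all genes tested were called (0.811% higher and 0.811% lower). The share was 2.03% among 9873 coding genes at the same minimum level and 0.623% among 1284 other tested lncRNAs, which were less abundant. The median log2 difference of the members was 0.03, against 0.00 over all genes tested. At an unadjusted p under 0.05 there were 28 members (16.4%), against 11.8% of all genes tested. The libraries of the groups did not overlap for 20 members (11.7%), against 8.65% of all genes tested. For 160 of the 171 the 95% interval of the difference lay within a 2-fold change either way.

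Gm47033, a gene with no described role at chromosome 10, positions 102251744 to 102253875 on GRCm39, had 3.97, 2.66, 5.38 and 4.26 CPM in Ctrl PMBSF and 6.59, 10.3, 9.07 and 6.61 CPM in Ctrl ALBSF. All 4 Ctrl PMBSF libraries were below all 4 Ctrl ALBSF libraries. The mean of Gm47033 was under 5 CPM in Ctrl PMBSF and embWPC ALBSF, so it reached the minimum through Ctrl ALBSF. The log2 difference was -1.11 ± 0.20 (SE, n = 4 per group), a level in Ctrl PMBSF of 0.462 times that in Ctrl ALBSF, with an adjusted p of 0.00906. It was the only member called whichever of the 12 libraries was left out, with adjusted p from 0.00628 to 0.0431.

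A230077H06Rik, which overlaps Vstm2b on the opposite strand of chromosome 7 (40467900 to 40550468), had 7.24, 5.64, 9.20 and 6.36 CPM in Ctrl PMBSF and 12.7, 13.6, 14.7 and 10.8 CPM in Ctrl ALBSF. The groups did not overlap, and the difference was -0.98 ± 0.19 with an adjusted p of 0.0144. Without Ctrl ALBSF 3 the adjusted p was 0.0641 and without Ctrl PMBSF 2 it was 0.0549. Mir9-2hg, host of Mir9-2 on chromosome 13 (83863087 to 84100589), had 4.35, 5.22, 8.20 and 5.20 CPM in Ctrl PMBSF and 9.45, 9.98, 8.10 and 9.16 CPM in Ctrl ALBSF. Here library 3 of Ctrl PMBSF lay just above the lowest Ctrl ALBSF library and the other 3 lay well below. The difference was -0.78 ± 0.15 with an adjusted p of 0.0145, and 0.0521 without Ctrl ALBSF 2.

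Gm16565, which overlaps the gene of the T cell receptor zeta chain Cd247 on the same strand of chromosome 1 (165607638 to 165616936), had 4.90, 4.51, 3.35 and 3.23 CPM in Ctrl PMBSF and 8.84, 8.996, 7.03 and 5.95 CPM in Ctrl ALBSF. The groups did not overlap, and the difference was -1.03 ± 0.20 with an adjusted p of 0.0148, and 0.0572 without Ctrl ALBSF 2. B230209E15Rik, on chromosome 7 (61179591 to 61265226) and 730247 bases from the start of its nearest coding gene Ndn, had 12.3, 6.87, 9.14 and 8.27 CPM in Ctrl PMBSF and 17.1, 20.5, 16.9 and 17.7 CPM in Ctrl ALBSF. The difference was -1.09 ± 0.22 with an adjusted p of 0.0189 and no overlap between the groups. It missed the threshold when any of libraries 2 to 4 of either group was left out, with adjusted p from 0.0526 to 0.0710.

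The member called higher was 2610307P16Rik, a long gene near the transcription factor gene Sox4 on chromosome 13 (28614558 to 29069613), with 10.5, 7.97, 8.55 and 9.30 CPM in Ctrl PMBSF and 7.38, 5.80, 4.05 and 4.28 CPM in Ctrl ALBSF. Every Ctrl PMBSF library was above every Ctrl ALBSF library. The difference was 0.67 ± 0.15 with an adjusted p of 0.0339, and it remained under 0.05 in 5 of the 12 fits that left out 1 library. It missed without Ctrl ALBSF 2 (0.0823), 3 (0.134) or 4 (0.117), Ctrl PMBSF 1 (0.0915), 2 (0.0690) or 4 (0.0927), or embWPC ALBSF 3 (0.0517). The number of members called was 2 without Ctrl ALBSF 2 (0.899% of all genes), 3 without Ctrl ALBSF 3 (0.709%) and 3 without Ctrl PMBSF 2 (0.912%), and DESeq2 called 12 (3.01%). Scaled by library totals alone, 4 members were called (1.25% of all genes), and A230077H06Rik (adjusted p 0.0658), Mir9-2hg (0.0613) and 2610307P16Rik (0.0513) missed the threshold. The fit of the 2 control groups alone called 5 (1.35%) and missed 2610307P16Rik (0.0829). All 6 were among the 8 called with no count filter (1.15%) and the 9 called by voom (2.53%).

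**Figure D1:**
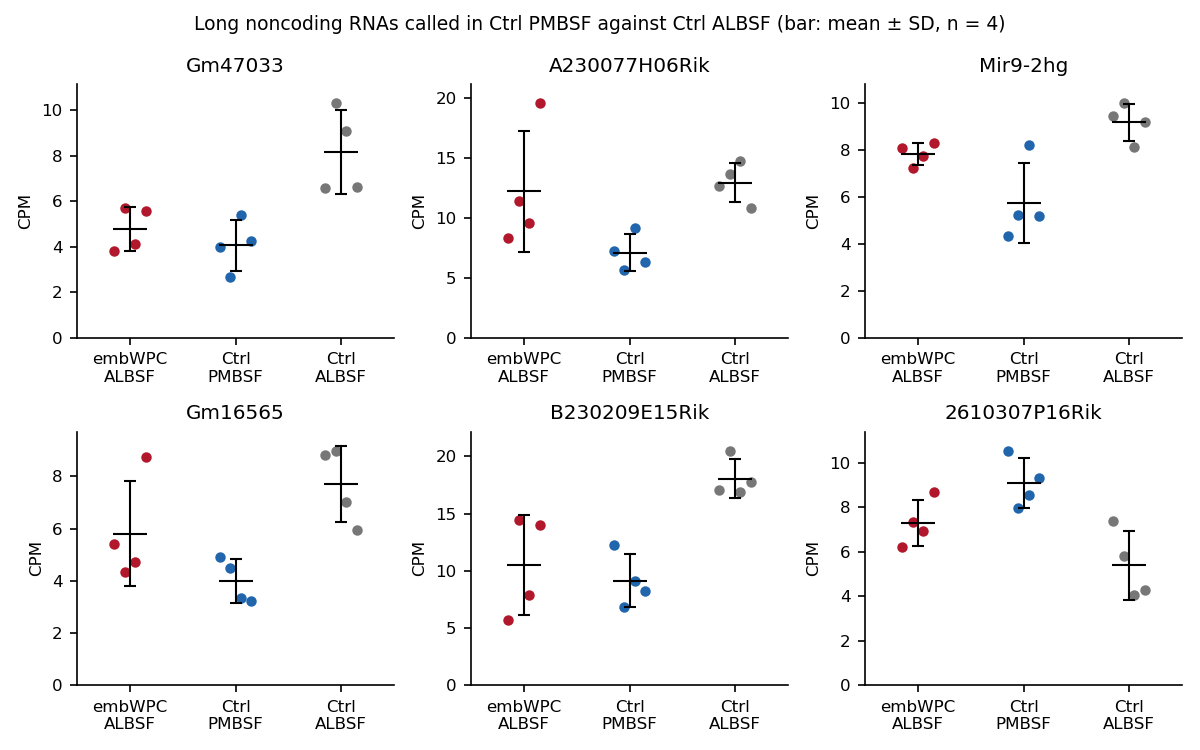
Level in CPM (y axis, from 0) of the 6 long noncoding RNAs called between Ctrl PMBSF and Ctrl ALBSF. Each point is 1 library of embWPC ALBSF, Ctrl PMBSF or Ctrl ALBSF, and bars give the mean ± SD of 4. The first 5 genes show Ctrl PMBSF mostly below Ctrl ALBSF, and 2610307P16Rik shows it above, at 9.09 ± 1.11 against 5.38 ± 1.54 CPM.

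Levels of meningeal fibroblast markers differed between these libraries. Their 11 genes summed to 17.2 to 94.8 CPM in Ctrl PMBSF, with 94.8 in library 2 and 42.9 in library 3, and to 17.5 to 19.1 CPM in Ctrl ALBSF. All 10 that were tested had a higher estimate in Ctrl PMBSF and none was called. Of 7 oligodendrocyte lineage markers Sox10 was called, lower in Ctrl PMBSF, and the list summed to 351 to 417 CPM in Ctrl PMBSF and 367 to 514 CPM in Ctrl ALBSF. Of the 11 relay neuron markers 4 were called, 2 higher and 2 lower, and no marker of the other lists (prethalamic, vascular, erythroid, microglial, astroglial, dividing, choroid plexus or cortical cells) was. With the meningeal level as a covariate 0 of the 171 members were called, against 0.486% of all genes. The estimates then were -0.998 for Gm47033, -0.96 for A230077H06Rik, -1.07 for Mir9-2hg, -1.04 for Gm16565, -0.77 for B230209E15Rik and 0.91 for 2610307P16Rik. Without Ctrl PMBSF 2 and 3 only Mir9-2hg was called (0.527% of all genes), at -1.02 with an adjusted p of 0.0133. Ctrl PMBSF 3 was the library of its group in which Mir9-2hg was not low. Without Ctrl PMBSF 3 alone its difference was -0.95 (adjusted p 0.00335), so leaving it out enlarges this difference whatever its meningeal level. In tissue pieces fewer cells of a type and less RNA per cell cannot be told apart.

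Control libraries that share a number deviated together from their group means, so the same 8 libraries were also fitted with the number as a block. That fit called 21 members (12.3%), 12 higher and 9 lower in Ctrl PMBSF, against 5.04% of all genes tested (2.43% higher and 2.61% lower) and 6.48% of coding genes at the same minimum. All 6 members called without the block were among the 21. By CPM the 4 numbered pairs moved the same way in 20 of the 21, and the exception was Mir9-2hg, whose pair 3 differed by 0.02. The fit with the block favours members whose pairs move alike, so this count is a description and no further evidence. CPM also lack the TMM scaling of the fit, whose factors were 1.12 for Ctrl PMBSF 3 and 0.908 for Ctrl ALBSF 3. Scaled by these, Mir9-2hg was lower in Ctrl PMBSF in pair 3 as well. Leaving out each pair in turn gave 18 calls without pair 1 (5.71% of all genes), 16 without pair 2 (3.15%), 9 without pair 3 (2.22%) and 6 without pair 4 (1.81%). The members called in every one of those fits were A230077H06Rik, B230209E15Rik, Gm16565, Gm47033, D430036J16Rik and A330102I10Rik.

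D430036J16Rik was named after its values were seen. Htr1b is the gene of a serotonin receptor that thalamic relay neurons carry. D430036J16Rik overlaps it on the opposite strand of chromosome 9 (81513604 to 81528702), with start sites 2298 bases apart. Its level was 5.36, 34.7, 33.4 and 12.9 CPM in Ctrl PMBSF and 3.09, 12.3, 11.7 and 6.39 CPM in Ctrl ALBSF, in the order of the numbers. Libraries 2 and 3 were high in both territories, so the groups overlapped, but in each pair the Ctrl PMBSF library was the higher one. The difference was 1.16 ± 0.12 with an adjusted p of 0.000211 with the block, and 1.26 ± 0.52 with an adjusted p of 0.328 without it. Htr1b had 43.5, 55.2, 54.1 and 54.4 CPM in Ctrl PMBSF and 28.5, 30.6, 23.5 and 26.4 CPM in Ctrl ALBSF, with no overlap. Its difference was 0.84 ± 0.12 with an adjusted p of 0.00231. Both genes were higher in Ctrl PMBSF, and the wide spread of D430036J16Rik between numbers was not seen in Htr1b. In embWPC ALBSF, D430036J16Rik had 10.8, 18.3, 8.22 and 10.6 CPM and Htr1b 38.5, 33.5, 46.9 and 44.2 CPM, so that all 4 Htr1b values lay above those of Ctrl ALBSF. Other genes covered 21.5% of the exon bases of D430036J16Rik.

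**Figure D2:**
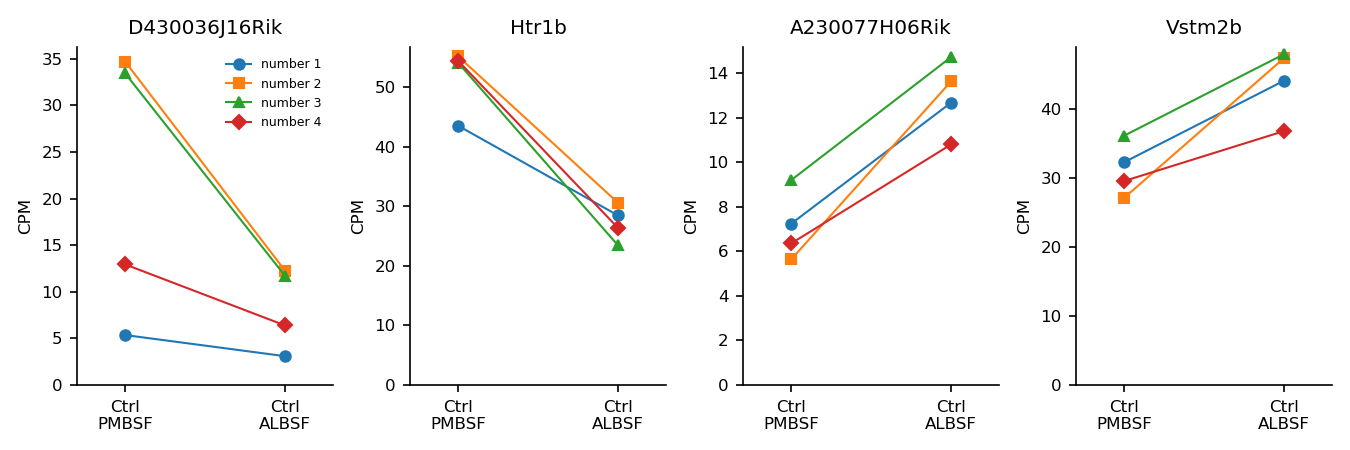
Level in CPM (y axis, from 0) of 2 long noncoding RNAs and their coding neighbours in Ctrl PMBSF and Ctrl ALBSF libraries, with a line for each shared number. D430036J16Rik and Htr1b were higher in Ctrl PMBSF, and A230077H06Rik and Vstm2b lower, in all 4 pairs.

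Other members passed the threshold with the block and not without it. A330102I10Rik, which overlaps Sox4 on the opposite strand, had 9.79, 6.45, 9.33 and 10.1 CPM in Ctrl PMBSF and 5.58, 3.48, 4.74 and 6.05 CPM in Ctrl ALBSF, and its difference was 0.75 ± 0.11 (adjusted p 0.00221). Higher as well were 2900079G21Rik by 0.40 (adjusted p 0.00448), Gm10605 by 0.36 (adjusted p 0.0117), A330008L17Rik by 0.61 (adjusted p 0.0207), Gm3693 by 0.50 (adjusted p 0.0228) and C630043F03Rik by 0.47 (adjusted p 0.0264). Those lower in Ctrl PMBSF included Dubr, an RNA known from muscle cells, at -0.38 (adjusted p 0.0118), 6330403L08Rik at -0.46 (adjusted p 0.0178), 2610316D01Rik at -0.66 (adjusted p 0.0299) and Gm12371 at -0.39 (adjusted p 0.0299). All of these estimates were under a 2-fold change.

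Members with a start within 5 kb of that of a coding gene on the opposite strand mostly shared the sign of its territory difference. This class holds pairs that overlap, such as D430036J16Rik with Htr1b, as well as pairs that run apart. Among 75 such pairs with both genes tested, the log2 differences between Ctrl PMBSF and Ctrl ALBSF had Pearson's r of 0.66 and Spearman's rho of 0.56, and 51 pairs shared a sign. Among 49 pairs with no overlap and starts farther apart or on one strand, r was 0.19 and rho 0.21, and 28 shared a sign. For 19 members that overlap a coding gene on the opposite strand r was 0.30 and rho 0.27, and 12 shared a sign. For 11 that overlap one on the same strand r was 0.94 but rho 0.36, and 8 shared a sign. In these classes the nearest coding gene by start site is not always the one overlapped. Kcnq1ot1 overlaps Kcnq1 and was paired with Cdkn1c, and Sox2ot overlaps Sox2 and was paired with Dnajc19. Both genes of a pair were measured in the same libraries, and reads over shared exons may be counted for either. Among the 25 pairs in which other genes covered under 10% of the member's exon bases r was 0.81, and among the other 50 it was 0.62.

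In 7 of the 154 pairs with both genes tested the nearest coding gene was called between the territories, where 2.03% of coding genes at the members' minimum level were, and in all 7 the member's estimate had the same sign. A230077H06Rik with Vstm2b, an immunoglobulin domain gene, and Gm16565 with Cd247 were the pairs in which both genes were called. Vstm2b had 32.3, 27.2, 36.2 and 29.6 CPM in Ctrl PMBSF and 44.2, 47.4, 48.0 and 36.8 CPM in Ctrl ALBSF. These groups did not overlap, and the difference was -0.60 ± 0.11 with an adjusted p of 0.0131. Cd247 differed by -0.997 ± 0.217 (adjusted p 0.0326) at 1.89 ± 0.23 CPM in Ctrl PMBSF and 3.53 ± 0.95 CPM in Ctrl ALBSF.

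Pcdh10, a protocadherin of axon growth, averaged 22.3 ± 4.14 CPM in Ctrl PMBSF and 39.5 ± 6.04 CPM in Ctrl ALBSF, a difference of -0.94 ± 0.12 (adjusted p 0.00176). Beside it 2610316D01Rik had 6.75, 3.52, 5.10 and 3.67 CPM in Ctrl PMBSF and 7.24, 6.82, 6.19 and 7.18 CPM in Ctrl ALBSF, with a log2 difference of -0.63 ± 0.17 (adjusted p 0.0943). Cdh8, a classical cadherin, differed by 0.70 ± 0.15 (adjusted p 0.0258). A330008L17Rik had 7.91, 5.28, 6.51 and 6.42 CPM in Ctrl PMBSF and 4.28, 4.32, 3.33 and 4.03 CPM in Ctrl ALBSF, with no overlap, a log2 difference of 0.61 ± 0.17 (adjusted p 0.101). These are the members whose promoter windows were nearly shared with the coding gene or overlapped it. M5C1000I18Rik and C2cd4b, 806 bases apart, differed by 0.27 ± 0.13 (adjusted p 0.453) and 1.01 ± 0.15 (adjusted p 0.00356). With the block, the nearest coding gene was called in 18 of 154 pairs, against 6.48% of coding genes at the same minimum, 15 of them with the sign of the member, and in the 6 pairs with both genes called the signs were the same.

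**Figure D3:**
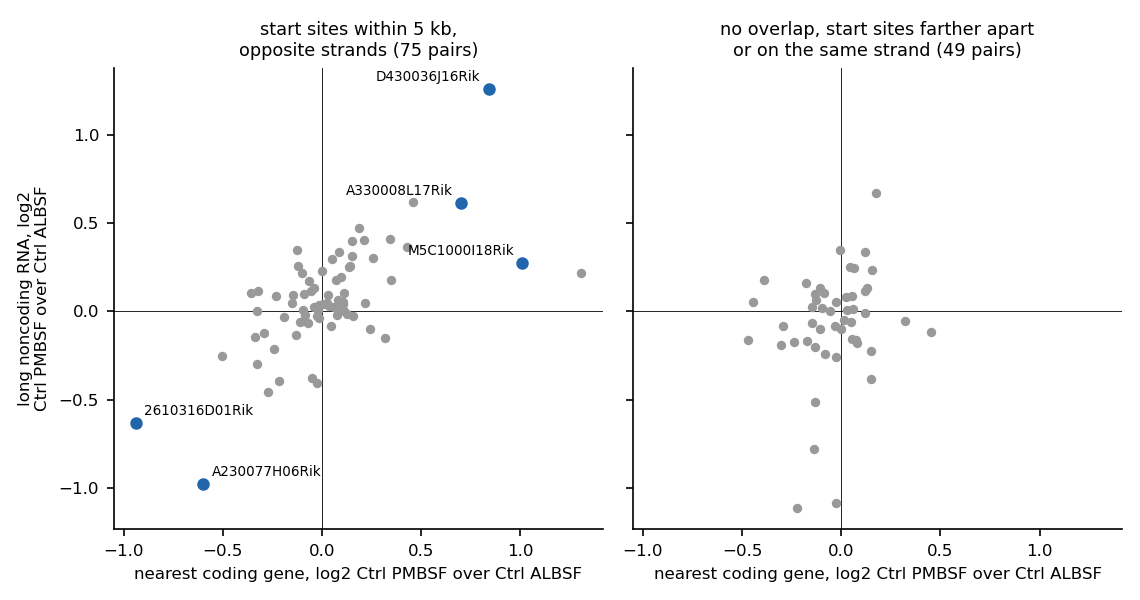
Log2 difference, Ctrl PMBSF over Ctrl ALBSF, of each long noncoding RNA (y axis) against that of its nearest coding gene (x axis). Left, 75 pairs with start sites within 5 kb on opposite strands; right, 49 pairs without overlap and with starts farther apart or on one strand; blue points with names mark called coding genes. The points spread along the diagonal on the left (r = 0.66) more than on the right (r = 0.19).

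Other called members had nearest coding genes that were not called. Sox4, near 2610307P16Rik and A330102I10Rik, differed by 0.18 ± 0.10 (adjusted p 0.546), and Mef2c, near Mir9-2hg, by -0.14 ± 0.12 (adjusted p 0.728). Ndn, near B230209E15Rik, differed by -0.02 ± 0.12 (adjusted p 0.970), and Nts, near Gm47033, by -0.22 ± 0.35 (adjusted p 0.876). Around Sox4 lay 3 members within one stretch of chromosome 13 (28578436 to 29241710). Gm40841, the third of them, had 6.64, 6.45, 8.98 and 7.49 CPM in Ctrl PMBSF and 8.84, 8.996, 8.82 and 8.60 CPM in Ctrl ALBSF, which gave -0.36 ± 0.11 (adjusted p 0.163). The estimate was thus negative for Gm40841 and positive for the other members of the stretch.

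Of the 15 miRNA hosts by annotation, a set added after values were seen, 2 were called between the territories. The share was 1.62% of all genes tested and 6 of the 171 members. Mir9-2hg was lower and 2610307P16Rik higher in Ctrl PMBSF. The list of miRNA hosts had 15 symbols, of which 14 were found and 7 were members. These 7 did not include Mir9-2hg or 2610307P16Rik, and none was called in any comparison. Gm3764, host of Mir9-1, had 21.5, 30.5, 44.5 and 31.3 CPM in Ctrl PMBSF and 25.9, 31.3, 32.9 and 33.1 CPM in Ctrl ALBSF, and Mir9-3hg had 25.1, 32.1, 39.5 and 25.3 CPM in Ctrl PMBSF and 31.4, 31.2, 35.0 and 30.2 CPM in Ctrl ALBSF. Their groups overlapped, with differences of -0.06 ± 0.18 (adjusted p 0.949) and -0.17 ± 0.13 (adjusted p 0.656). Of the 3 hosts of miR-9 only Mir9-2hg was called, and whether its difference differs from those of the other hosts was not tested.

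The hosts of miR-124, a miRNA abundant in neurons, overlapped between all groups. Mir124-2hg averaged 78.8 ± 9.98 CPM in embWPC ALBSF, 78.9 ± 13.4 CPM in Ctrl PMBSF and 73.4 ± 7.54 CPM in Ctrl ALBSF. Mir124a-1hg averaged 9.89 ± 2.22 CPM in embWPC ALBSF, 10.1 ± 4.53 CPM in Ctrl PMBSF and 8.77 ± 2.24 CPM in Ctrl ALBSF. Gm27032, host of Mir124a-3, averaged 6.31 ± 1.01 CPM in embWPC ALBSF, 6.71 ± 1.87 CPM in Ctrl PMBSF and 6.69 ± 0.98 CPM in Ctrl ALBSF. No host of miR-124 came near the threshold. Mir100hg had 17.6, 14.4, 30.2 and 14.9 CPM in Ctrl PMBSF and 14.8, 17.5, 16.2 and 14.3 CPM in Ctrl ALBSF, and Mir99ahg had 7.56, 6.15, 11.9 and 7.27 CPM in Ctrl PMBSF and 6.12, 8.54, 8.23 and 6.99 CPM in Ctrl ALBSF. In both of these library 3 of Ctrl PMBSF was the highest of the 8. Neither passed the test (adjusted p 0.751 and 0.982).

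**Figure D4:**
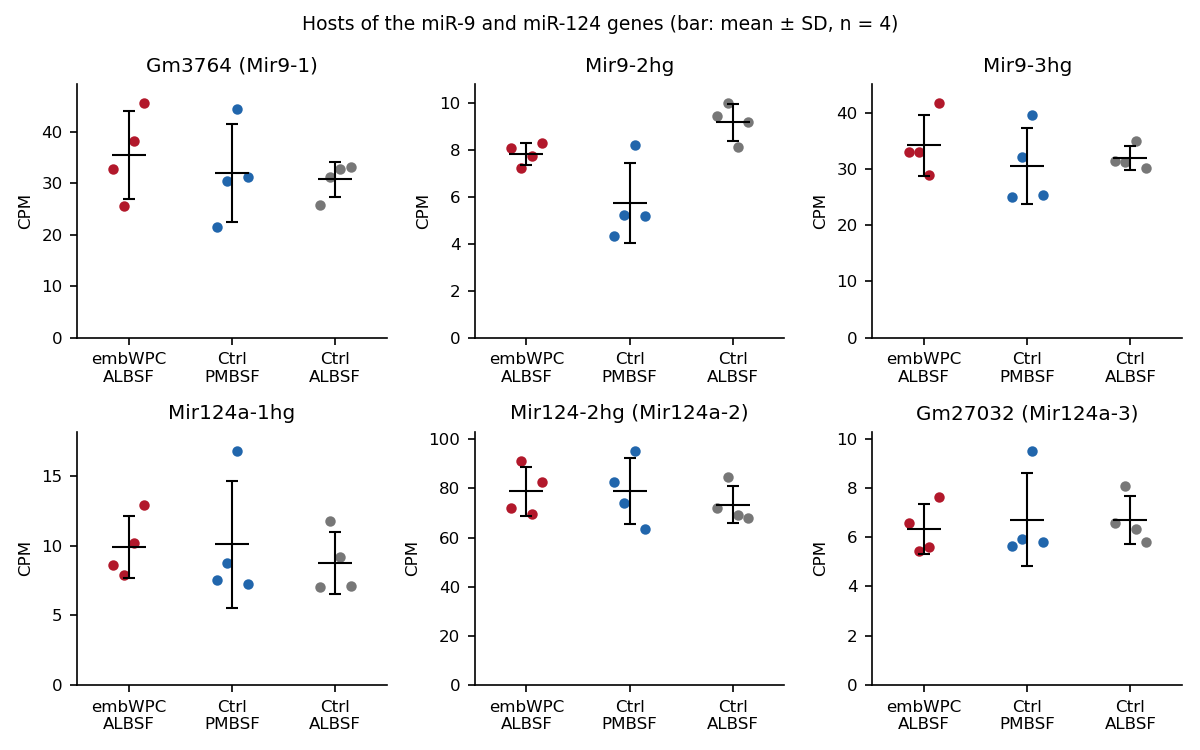
Level in CPM (y axes, from 0) of the hosts of the 3 miR-9 genes (top) and the 3 miR-124 genes (bottom). Points are libraries of embWPC ALBSF, Ctrl PMBSF and Ctrl ALBSF and bars give the mean ± SD of 4. Mir9-2hg is the panel in which Ctrl PMBSF lies mostly below Ctrl ALBSF, and in the bottom panels library 3 is the highest point of Ctrl PMBSF.

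The snoRNA hosts gave no call in any comparison, whether counted by annotation (19 members) or as the listed hosts (13 members, among them Gas5, Snhg11 and Snhg12). The median log2 difference of the 13 was 0.06 between Ctrl PMBSF and Ctrl ALBSF, 0.10 between embWPC ALBSF and Ctrl ALBSF and 0.03 between embWPC ALBSF and Ctrl PMBSF. Over all genes tested these medians were 0.00, -0.01 and -0.02. The 8 snoRNP proteins, which include Fbl and Dkc1, gave no call either.

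The 3 members found from a list of 13 imprinted symbols also gave no call. B230209E15Rik, called between the territories, was not on that list and lies on chromosome 7 between Snhg14 and Ndn. Whether B230209E15Rik is imprinted was not examined. Kcnq1ot1, a paternally expressed RNA that silences its neighbours in cis, had 18.9, 16.3, 27.2 and 36.0 CPM in embWPC ALBSF, 21.1, 23.5, 51.7 and 24.9 CPM in Ctrl PMBSF and 15.7, 27.6, 22.8 and 23.2 CPM in Ctrl ALBSF. Library 3 of Ctrl PMBSF stood apart, and the rest overlapped. The maternally expressed Cdkn1c, a cell cycle inhibitor 164479 bases away, averaged 269 ± 27.3 CPM in Ctrl PMBSF and 115 ± 22.8 CPM in Ctrl ALBSF, with no overlap. Its difference was 1.14 ± 0.18 with an adjusted p of 0.00420, against 0.32 ± 0.26 with an adjusted p of 0.705 for Kcnq1ot1. Snhg14, the host that runs antisense to Ube3a, averaged 37.5 ± 8.53 CPM in embWPC ALBSF, 38.8 ± 13.1 CPM in Ctrl PMBSF and 34.1 ± 6.03 CPM in Ctrl ALBSF.

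Among 7 nuclear or housekeeping members and 4 members listed as neighbours of neural transcription factor genes, none was called in any comparison without the block. With it Dubr, one of the 4, was called lower in Ctrl PMBSF, as given above. Dubr is among them by the list only, since its nearest coding gene was Ccdc54, 142964 bases away. Dubr averaged 34.9 ± 7.77 CPM in embWPC ALBSF, 31.5 ± 6.84 CPM in Ctrl PMBSF and 38.2 ± 8.29 CPM in Ctrl ALBSF. Its groups overlapped, and the Ctrl PMBSF library was the lower in all 4 pairs. Without the block the territory difference was -0.38 ± 0.17 (adjusted p 0.401), with a 95% interval from -0.74 to -0.01. Chaserr, which lies beside Chd2 and lowers its level, averaged 34.3 ± 4.41 CPM in embWPC ALBSF, 36.6 ± 2.24 CPM in Ctrl PMBSF and 30.2 ± 3.48 CPM in Ctrl ALBSF. Sox2ot, whose gene spans Sox2, averaged 61.7 ± 23.0 CPM in embWPC ALBSF, 58.8 ± 3.19 CPM in Ctrl PMBSF and 49.9 ± 6.35 CPM in Ctrl ALBSF. For both, the control groups overlapped, and by CPM the Ctrl PMBSF library was the higher in all 4 pairs. These CPM lack the TMM scaling of the fit, whose factors were 1.12 for Ctrl PMBSF 3 and 0.908 for Ctrl ALBSF 3. Such factors lower Ctrl PMBSF in pair 3. Sox2ot had a log2 difference of 0.28 there by CPM, and scaled by these factors it was no longer higher in Ctrl PMBSF in that pair. The differences were 0.18 ± 0.13 (adjusted p 0.638) for Chaserr and 0.14 ± 0.16 (adjusted p 0.802) for Sox2ot, with adjusted p of 0.128 and 0.316 in the fit with the block. Pantr1, beside Pou3f3, averaged 23.4 ± 6.46 CPM in embWPC ALBSF, 28.8 ± 3.29 CPM in Ctrl PMBSF and 29.6 ± 1.80 CPM in Ctrl ALBSF. A830082K12Rik, beside Nr2f1, averaged 57.0 ± 3.17 CPM in embWPC ALBSF, 68.9 ± 10.1 CPM in Ctrl PMBSF and 60.6 ± 7.19 CPM in Ctrl ALBSF. In the fit without the block the 95% intervals of Chaserr, Sox2ot, Pantr1 and A830082K12Rik held 0 in all 3 comparisons.

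Proteins that act on such RNAs were listed beside them. None of 8 miRNA processing proteins (Drosha, Dicer1 and others), 11 speckle and paraspeckle proteins, 13 RNA decay proteins or 9 chromatin proteins was called in any comparison. Their medians between Ctrl PMBSF and Ctrl ALBSF were -0.01, -0.02, 0.02 and -0.02, close to that of all genes tested.

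embWPC ALBSF was compared with Ctrl ALBSF, the same territory, to ask what the manipulation changed there. By edgeR 0 of the 171 members were called, against 0.0629% of all genes tested (11 genes). At an unadjusted p under 0.05 there were 18 (10.5%), against 9.22% of all genes, and DESeq2 called 3 (1.03% of all genes) and voom 1 (0.429%). For 162 of the 171 the 95% interval lay within a 2-fold change either way, so larger changes were outside the interval for these. The libraries of the groups did not overlap for 8 members (4.68%), against 3.78% of all genes.

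The members with the smallest p were 2610316D01Rik, Gm47033 and B230209E15Rik. For 2610316D01Rik and Gm47033 the mean in embWPC ALBSF was under 5 CPM, and both reached the minimum through Ctrl ALBSF. 2610316D01Rik had 3.16, 4.26, 4.61 and 5.07 CPM in embWPC ALBSF and 7.24, 6.82, 6.19 and 7.18 CPM in Ctrl ALBSF. All 4 embWPC libraries lay below, and the difference was -0.72 ± 0.17 with an adjusted p of 0.139 (edgeR). Its neighbour Pcdh10 had 19.9, 24.2, 23.5 and 27.9 CPM in embWPC ALBSF and 31.1, 45.4, 41.6 and 40.0 CPM in Ctrl ALBSF, a log2 difference of -0.77 ± 0.12 (adjusted p 0.0486). Gm47033 had 3.80, 5.68, 4.11 and 5.55 CPM in embWPC ALBSF against 6.59, 10.3, 9.07 and 6.61 CPM in Ctrl ALBSF. Again no library overlapped, and the difference was -0.81 ± 0.20 with an adjusted p of 0.146. B230209E15Rik had 5.73, 14.4, 7.91 and 13.98 CPM in embWPC ALBSF against 17.1, 20.5, 16.9 and 17.7 CPM in Ctrl ALBSF, also without overlap. Its difference was -0.83 ± 0.21 with an adjusted p of 0.176. DESeq2 called these 3 members, and voom called B230209E15Rik. With no count filter 3 members were called (0.350% of all genes), and without Ctrl PMBSF 1, which enters the shared estimate of spread, 1 was (0.208%).

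Marker levels of other cell types differed in this comparison too. The 8 erythroid markers summed to 402 to 776 CPM in embWPC ALBSF and 869 to 1331 CPM in Ctrl ALBSF, with no overlap. The 11 meningeal markers summed to 11.98 to 14.3 CPM in embWPC ALBSF and 17.5 to 19.1 CPM in Ctrl ALBSF, again with no overlap. The sums of 10 prethalamic markers (6.77 to 45.9 CPM in embWPC ALBSF, 5.01 to 56.2 CPM in Ctrl ALBSF), 8 microglial markers (41.3 to 64.6 CPM and 49.8 to 87.9 CPM) and 5 choroid plexus markers (10.4 to 14.6 CPM and 11.1 to 110.1 CPM) overlapped. All the tested markers of these lists had a lower estimate in embWPC ALBSF, with a median of -0.74 for 5 erythroid, -0.79 for 10 meningeal, -0.63 for 8 prethalamic, -0.50 for 8 microglial and -1.30 for 4 choroid plexus markers, and none was called. With the meningeal level as a covariate 0 members were called (0.103% of all genes), and the estimates were -0.91 for 2610316D01Rik (adjusted p 0.0520), -0.87 for Gm47033 and -0.99 for B230209E15Rik. The part of the other markers in these values was not tested.

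Gm42901 had 6.40, 6.34, 5.56 and 6.32 CPM in embWPC ALBSF and 5.47, 4.46, 3.83 and 4.57 CPM in Ctrl ALBSF, and every embWPC library was the higher. The difference was 0.41 ± 0.12 with an adjusted p of 0.269. 2810032G03Rik averaged 8.92 ± 1.87 CPM in embWPC ALBSF and 11.6 ± 1.92 CPM in Ctrl ALBSF, a log2 difference of -0.43 ± 0.15 (adjusted p 0.386). Among the 75 pairs with starts within 5 kb on opposite strands, r between member and neighbour was 0.66 and rho 0.58 for this comparison as well. It uses the same 4 Ctrl ALBSF libraries as the territory comparison, so the values of the comparisons are not independent of each other.

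embWPC ALBSF was also set against Ctrl PMBSF. By edgeR 0 of the 171 were called, against 0.00571% of all genes tested (1 gene), with 20 (11.7%) at an unadjusted p under 0.05 against 9.47% of all genes. DESeq2 called 1 (0.423% of all genes) and voom 0 (0.00571%). Groups did not overlap for 7 members (4.09%), against 4.69% of all genes. The member DESeq2 called was A230077H06Rik, with 8.37, 11.4, 9.57 and 19.6 CPM in embWPC ALBSF and 7.24, 5.64, 9.20 and 6.36 CPM in Ctrl PMBSF. The lowest embWPC library overlapped the highest Ctrl PMBSF library, and by edgeR the difference was 0.83 ± 0.18 with an adjusted p of 0.240. Mir9-2hg had 8.06, 7.22, 7.75 and 8.28 CPM in embWPC ALBSF against 4.35, 5.22, 8.20 and 5.20 CPM in Ctrl PMBSF. That difference was 0.53 ± 0.15 with an adjusted p of 0.326. A330102I10Rik averaged 5.21 ± 1.75 CPM in embWPC ALBSF and 8.92 ± 1.68 CPM in Ctrl PMBSF, a difference of -0.70 ± 0.23 (adjusted p 0.389), and Gjd2os, beside the gap junction gene Gjd2, differed by -0.36 (adjusted p 0.384). The 75 pairs with starts within 5 kb on opposite strands had r of 0.14 and rho of 0.03 in this comparison, and 34 shared a sign. Meningeal markers summed to 11.98 to 14.3 CPM in embWPC ALBSF and 17.2 to 94.8 CPM in Ctrl PMBSF. With the meningeal level as a covariate 0 members were called (0.0114% of all genes), and the estimates were 0.81 for A230077H06Rik, 0.94 for Mir9-2hg, -1.17 for A330102I10Rik and -0.57 for Gjd2os. Without Ctrl PMBSF 2 and 3 there were again 0 (0.00549%), with estimates of 0.88, 0.77, -0.88 and -0.42 for the same genes. With no count filter 1 member was called (0.208% of all genes).

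**Figure D5:**
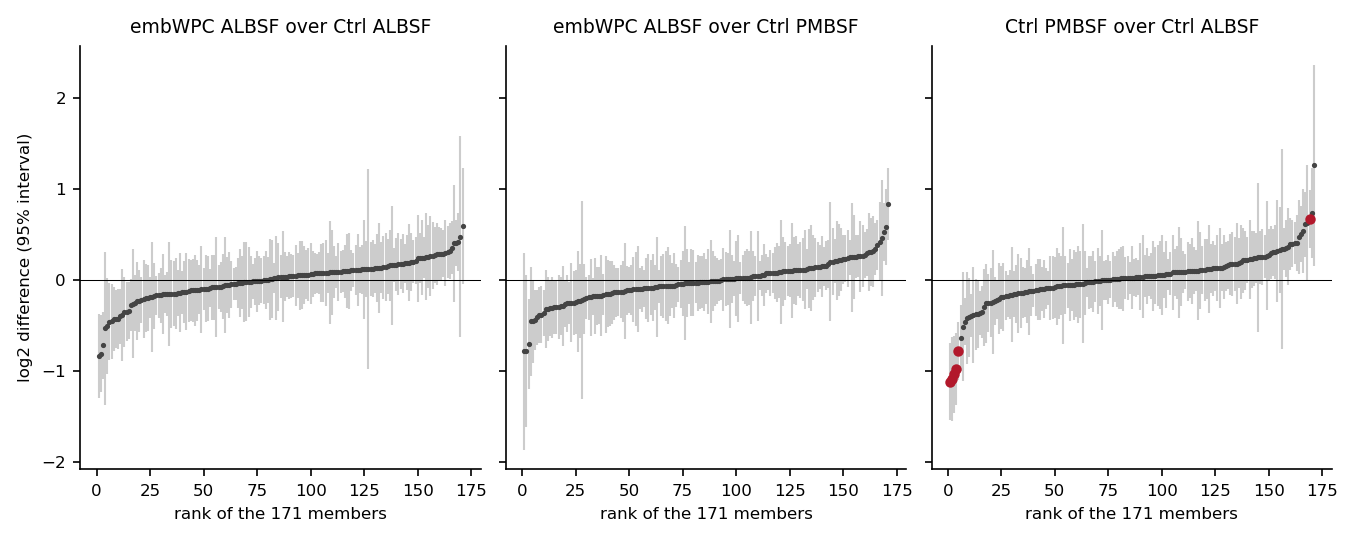
Log2 difference (y axis) with its 95% interval for each of the 171 long noncoding RNAs, in order of the estimate (x axis), in the 3 comparisons. Red points mark the 6 members called between Ctrl PMBSF and Ctrl ALBSF, and the other panels hold none.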

How the data were processed

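The deposited values were raw counts per Ensembl gene in 12 libraries. The authors aligned reads to GRCm39 with STAR 2.7.9a and assigned them to the genes of Ensembl release 104 by featureCounts (Subread 2.0.1), per the submitters' processing notes and the series design. The notes also list mm10. Strand and multi-mapping settings are not given in the sources used here. Biotypes, symbols, positions and exon lengths came from GENCODE mouse release 39 (GRCm39), which held 54749 of the 55359 genes. CPM are counts over the library total times 1000000. Any 2 libraries differed by a chi-square of at least 12.6 times its degrees of freedom, so none was entered more than once.

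In R 4.3.3, edgeR 4.0.16 fitted the quasi-likelihood model to all 12 libraries with TMM scaling, filterByExpr and group as the only term. Benjamini-Hochberg adjustment covered all 17501 genes tested, with calls made below 0.05. The fit was tested on simulated counts. Alternatives were other scalings, no filter, DESeq2 1.42.0, voom in limma 3.58.1, 2-group fits, a covariate and fits without each library. Deviations from the group means of control libraries with the same number had r of 0.39, 0.20, 0.33 and 0.40, each higher than with other numbers, so the numbers were taken to pair them; the labels do not say what a number marks. Those of embWPC ALBSF did not (r from -0.15 to 0.05).

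The members and gene lists were chosen with earlier results of these data known. Genes named were the members called, up to 6 with the smallest p per comparison, the 10 highest per kb, up to 4 per list, the members next to the minimum and the nearest coding genes. D430036J16Rik, Gm40841, M5C1000I18Rik, other members called with the block and the miRNA hosts by annotation were added after values were seen. 5 members share their symbol with another gene, and count values are of the lncRNA. Promoter windows were matched by symbol, so for such members a window may be of the other gene.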

Additional observations from a re-analysis of the deposited data

Results flagged for a closer look

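In 7 of 159 checks of 4 libraries each, 1 library stood apart from the other 3 of its group. Chance alone flags about 1 in 20 such groups. Of these, 4 concerned Ctrl PMBSF 3. Kcnq1ot1 had 51.7 CPM there, against 21.1 to 24.9 in the other Ctrl PMBSF libraries. Mir124a-1hg had 16.8 CPM, against 7.24 to 8.75. Mir22hg had 10.9 CPM, against 7.91 to 8.40, and Gm27032 had 9.52 CPM, against 5.62 to 5.91. Ctrl PMBSF 3 held the highest value of the 12 libraries for 37 members (21.6%) and for 21.1% of coding genes at the same minimum. Gm42901 in embWPC ALBSF 3 was low, at 5.56 CPM against 6.32 to 6.40 in the other embWPC libraries. Sox2ot in Ctrl ALBSF 1 was high, at 59.4 CPM against 45.7 to 47.4. The members' share of counts in Ctrl ALBSF 2 was 0.392%, against 0.343 to 0.350% in the other Ctrl ALBSF libraries.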

How the results depend on the processing

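Between Ctrl PMBSF and Ctrl ALBSF, 6 members were called. DESeq2 called 12, the fit with the meningeal covariate 0 and the replicate block 21, or 6 to 18 with the block and without each pair in turn (18 without pair 1 and 16 without pair 2). Without each library in turn the count was 2 to 7, and without Ctrl PMBSF 2 and 3 it was 1. Other scalings, no filter, voom and 2-group fits gave 4 to 9, where 4 with library totals alone held 3 of the 6, and 5 with the 2-group fit held 5. For embWPC ALBSF against Ctrl ALBSF the count was 0, 3 with no count filter (0.350% of all genes), 3 by DESeq2, 1 by voom, and 0 to 1 without each library (1 without Ctrl PMBSF 1, against 0.208%). For embWPC ALBSF against Ctrl PMBSF it was 0, 1 with no count filter (0.208%), 1 by DESeq2, and 0 without each library. With the replicate block these comparisons also gave 0, and their numbers pair nothing. A minimum of 2 CPM would give 395 members and 10 CPM 77. Without Snhg11 the members' share of counts was 0.321% in embWPC ALBSF, 0.322% in Ctrl PMBSF and 0.304% in Ctrl ALBSF. Over the 52 named members and the settings, 3350 values kept their side of the threshold, 35 lost a call, 47 gained one and none changed sign with a call. Estimates near 0 could change sign. For Peg13 the territory estimate was 0.020 without the block and -0.005 with it. The fits without pairs and without Ctrl PMBSF 2 and 3 were chosen after seeing the data. The causes were not tested.

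With 4 pools per group the median standard error of a member's log2 difference was 0.15, so changes well under 2-fold could be missed. Members of few counts, genes that share exons, and unknown strand limit single values.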
